A study of Rattus norvegicus with 24 samples.

Results

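The features described here are those that start between positions 1500000 and 6000000 of rat chromosome 20, the interval proposed as the major histocompatibility complex (MHC). Members had a length of at least 300 nucleotides and at least 48 counts summed over the 24 libraries. Of 326 features that start in the interval, 291 were long enough, 2 were left out by identifier and 133 of the remaining 289 fell under 48 counts, which left 156 members of 32552 features in the deposited tables. The weakest member had 48 counts in all and the strongest feature outside had 47. The tables give Ensembl identifiers without gene names, and 0 of them matched the RefSeq table used here. Members are therefore given by identifier and by the position in the deposited tables, for which the labels name no genome build. The chromosome alone was checked, from the RefSeq side, where 67 of 67 genes whose symbol starts with RT1-, the prefix of the rat MHC, lie on chromosome 20. Their positions were not compared with the interval, so its label was not checked. Which members are class I, class II or other genes was not analysed here, and the tissues could not be checked against marker genes for the same reason.

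The MHC is a gene-dense stretch of vertebrate genomes. Its class I genes encode surface proteins that show fragments of a cell's own proteins to cytotoxic T cells, and its class II genes encode proteins with which antigen-presenting cells show ingested material to helper T cells. The stretch between them holds complement, cytokine and many housekeeping genes. In the brain, class II expression is known mainly from microglia and other myeloid cells, and class I levels in neurons are low. The class I and class II genes are among the most variable genes between individuals, and the number of class I copies differs between rat strains.

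Bulk RNA was sequenced from micropunches of the nucleus accumbens (NAc), a target of midbrain dopamine neurons, and of the ventral tegmental area (VTA), which holds such neurons. The animals were male and female Sprague Dawley rats, an outbred strain, from a study of opioid withdrawal and of choice between fentanyl and food. Treated rats received fentanyl, a synthetic opioid, and controls received saline. Doses, ages and the withdrawal state of each group are not stated in the labels used here. Rats were decapitated in place of their last choice session. The NAc was taken with a 12 gauge punch of 2.16 mm internal diameter and the VTA with a 16 gauge punch of 1.19 mm. In each sex, 4 fentanyl and 3 saline rats gave NAc libraries, and 3 fentanyl and 2 saline rats gave VTA libraries. The animal codes are N for male fentanyl, L for female fentanyl, SM for male saline and SF for female saline rats. There were 14 rats, and 10 of them gave both regions. Libraries held 3.46 to 5.01 M counts in the NAc and 4.49 to 6.30 M in the VTA. In bulk tissue, a change in the number of cells of a type and a change in RNA per cell cannot be told apart.

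Levels along the interval were dominated by a few features. The 156 members lay between positions 1577656 and 5995137, 84 on the plus and 72 on the minus strand, with a median length of 2004.5 nucleotides. The strongest member held 26.8% of all member counts, the top 5 held 55.0% and the top 10 held 66.2%. Over the 24 libraries, 123 members reached a mean CPM (counts per 1000000 counts of the library) of 1, 56 reached 10 CPM and 8 reached 100 CPM. A count was found in every library for 103 members. The neighbourhood was dense: the median member had 70.5 other features starting within 500 kb on either side, against a median of 17 for all features with a count. Another feature overlapped 77 members, and for 53 it lay on the opposite strand. Neither the strand setting of the counting nor its handling of multi-mapped reads is recorded in the labels, so for these members, and for close copies, the split of reads is uncertain.

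Per kb of length, ENSRNOG00000000840 (positions 4821285 to 4823494, minus strand) ranked first, with 219 ± 16.2 CPM per kb in the NAc (SD, n = 14) and 280 ± 16.4 in the VTA (SD, n = 10). ENSRNOG00000000774 (positions 1955359 to 1984863, minus strand) ranked second. It reached 194 ± 11.5 CPM per kb in the NAc and 182 ± 28.1 in the VTA, and before scaling to length its level was 1307 ± 77.3 CPM and 1224 ± 189 CPM. The feature at position 3422461 was the third and was higher in the VTA, with 158 ± 23.9 CPM per kb against 73.9 ± 13.4 in the NAc. Both of the first-ranked features overlap a feature on the opposite strand, and the third overlaps none. The plot of level by position shows these peaks over a floor of many features near or under 1 CPM per kb.

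**Figure D1:**
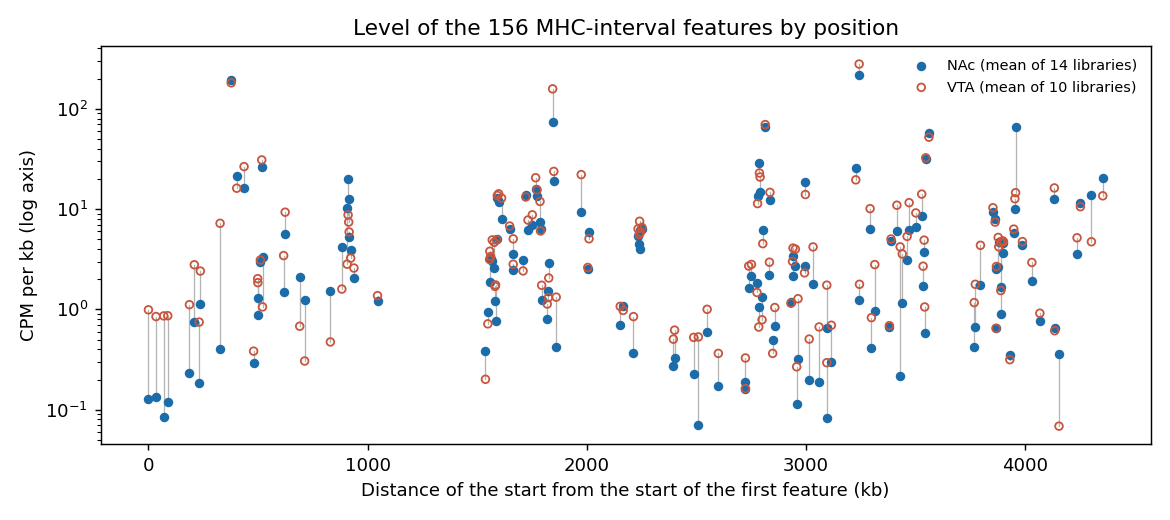
Mean level of each of the 156 features in CPM per kb (log axis) against the distance of its start from the start of the first feature, with NAc (filled, 14 libraries) and VTA (open, 10 libraries) joined by a line. Most features lie close together in both regions, while those at the left end and some single features are separated. The library totals behind CPM include mitochondrial counts.

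Summed over the 156 members, the level was 4642 ± 378 CPM in the NAc (SD, n = 14) and 4812 ± 466 CPM in the VTA (SD, n = 10). These sums do not order the regions. Mitochondrial features took 22.1 to 36.7% of counts in the NAc and 17.6 to 26.9% in the VTA, and with them left out of the total the sums were 6467 ± 308 CPM and 6152 ± 369 CPM, in the other order.

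Many members differed between the VTA and the NAc of the same rats, in both directions. ENSRNOG00000000860 and ENSRNOG00000048232 had nearly all of their counts in the VTA, while several features near 2.4 Mb and some from 5.5 to 6.0 Mb were higher in the NAc. Within the 10 rats with both regions, edgeR's quasi-likelihood test called 61 of the 129 members that passed the low-count filter at an adjusted p under 0.05, with 33 higher and 28 lower in the VTA. Over all 14795 features tested, 62.3% were called, 31.7% higher and 30.6% lower, against 47.3% of the members tested. The filter let in members with enough counts in either region, and a member that entered through the region where it is high had to differ. Of the 33 higher calls, 9 did not pass the filter in the NAc by itself, and of the 28 lower calls 2 did not pass it in the VTA. Among the 99 members that passed in each region, 24 were called higher and 26 lower, of which 5 and 8 differed by over 2-fold. The median log2 difference was 0.17 over the members tested and 0.02 over all features tested. In the fifth of tested features with the most neighbours within 500 kb, members left out, it was 0.10. A lean to the VTA was thus not particular to the members. The other 27 members did not pass the filter.

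ENSRNOG00000000860 (positions 5008508 to 5017669, plus strand) was nearly silent in the NAc. Its 14 NAc libraries ranged from 0 to 1.69 CPM with a median of 0.702, and the 10 VTA libraries from 4.13 to 22.0 CPM with a median of 13.3. The regions did not overlap. It held 29 counts in the NAc and 673 in the VTA of the 10 rats, and the VTA was higher in 10 of 10. In the VTA alone the fentanyl rats had 14.9 ± 5.95 CPM (SD, n = 6) and the saline rats 8.90 ± 3.66 CPM (SD, n = 4), with overlapping ranges.

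ENSRNOG00000048232 (positions 1904641 to 1905580, plus strand) is a feature of a single exon. It held 22 counts over the 14 NAc libraries and 363 over the 10 VTA libraries. The VTA was higher in 9 of 10 rats, and the tenth, N1, had 0 counts in both regions. This feature and ENSRNOG00000000860 did not pass the filter in the NAc alone, so their levels are given without a test of the regions.

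ENSRNOG00000000483 (positions 5535432 to 5564437, plus strand) was the strongest NAc-biased member. Its NAc libraries ranged from 226 to 434 CPM with a median of 322, and its VTA libraries from 48.5 to 112 CPM with a median of 73.5, so the regions did not overlap. The VTA level was lower by 2.29 ± 0.09 on the log2 scale (SE; log2 fold change -2.29, edgeR adjusted p = 4.40e-14). ENSRNOG00000054295 (positions 2484478 to 2486076, plus strand) fell by 1.99 ± 0.18 on the log2 scale from NAc to VTA (edgeR adjusted p = 9.18e-09). It was higher in the NAc in 10 of 10 rats, although the ranges of 3.13 to 11.5 CPM in the NAc and 0.900 to 3.27 CPM in the VTA overlapped.

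**Figure D2:**
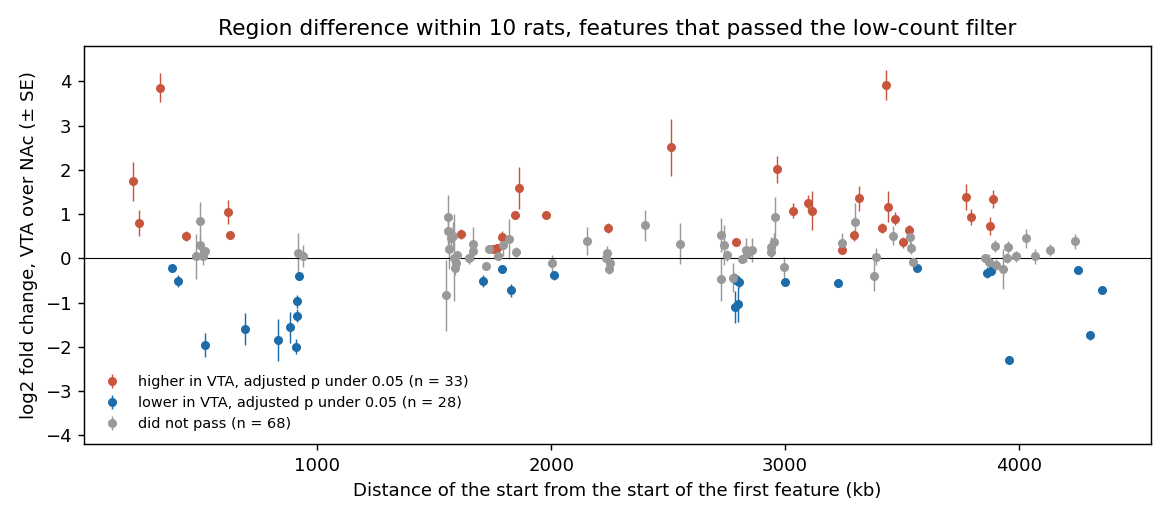
Log2 fold change of VTA over NAc (± SE) within 10 rats for the 129 features that passed the low-count filter, against the distance of the start from the start of the first feature. The 33 higher and 28 lower calls are coloured, and the lowest point is -2.29. The 2 highest points are ENSRNOG00000000860 and ENSRNOG00000048232, which entered the fit through their VTA counts.

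Neighbours shared a direction in 2 short stretches, which were picked out after their values were seen and are described without a test. From 1577656 to 1905580 lay 8 members of a single exon each, 928 to 1151 nucleotides long, and the VTA mean was higher in 8 of 8. They had 124 counts in the 14 NAc libraries and 826 in the 10 VTA libraries. The 48 counts asked of a member were summed over both regions. A member weak in the NAc thus entered through its VTA counts and had to be higher there. The summed level of the 8 was 0.487 to 6.78 CPM in the NAc and 10.1 to 24.9 CPM in the VTA, with no overlap, and 2 of the 8 passed the filter. From 2268105 to 2492504 lay 7 members, 638 to 1007 nucleotides long, with the NAc mean higher in 7 of 7. Their summed level was 28.1 to 45.6 CPM in the NAc and 11.2 to 21.5 CPM in the VTA, again without overlap. The 6 of these that passed the filter were called lower in the VTA, with log2 differences of -1.99 to -0.97. Of these 6, 2 did not pass the filter in the VTA by itself, with at most 1.43 and 1.13 CPM there. Those 2 entered through their NAc counts and had to be lower in the VTA. Longer stretches were mixed. In bins of 0.5 Mb, 6 of 28 members tested were called higher and 3 lower in the VTA from 3.0 to 3.5 Mb, and 2 of 17 higher and 5 lower from 4.0 to 4.5 Mb. From 4.5 to 5.0 Mb 8 of 19 were higher and 2 lower, and from 5.0 to 5.5 Mb 9 of 20 were higher and 3 lower. From 5.5 to 6.0 Mb 0 of 12 were higher and 4 lower. These shares stand beside the 31.7% higher and 30.6% lower over all features.

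The region difference was called for 39 members in the saline rats (22 higher, 17 lower in the VTA) and for 54 in the fentanyl rats (29 higher, 25 lower), where 45.0% (22.2% higher, 22.7% lower) and 54.3% (27.6% higher, 26.7% lower) of all features tested were called. The fits hold 4 saline and 6 fentanyl rats. Whether fentanyl changed the region difference was tested directly, and 0 of 129 members were called by edgeR, with 2 under an unadjusted p of 0.05 and 0 called by DESeq2. Over all features edgeR called 0 as well, with 5.25% under an unadjusted p of 0.05, and DESeq2 called 2 (0.0135%).

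In the NAc of females, the members called after fentanyl were nearly all lower. Fentanyl females averaged 12.5 ± 2.03 CPM of ENSRNOG00000000435 (SD, n = 4) and saline females 27.4 ± 3.94 CPM (SD, n = 3). ENSRNOG00000000463 was lower as well, at 29.1 ± 8.03 against 55.8 ± 8.23 CPM, while ENSRNOG00000000804 was higher, at 39.6 ± 6.46 against 30.0 ± 1.97 CPM. The test called 7 of the 100 members that passed the filter, 1 higher and 6 lower. Over all 13248 features tested, 13.5% were called, 8.05% higher and 5.45% lower. The share of members called lower, 6%, was thus near that of all features. The median log2 fold change was -0.12 over the members tested and 0.00 over all features. In the fifth of tested features with the most neighbours within 500 kb, members left out, it was also -0.12. There 4.51% were called higher and 9.02% lower, so a lean to lower values was not particular to the members. The other 56 members did not pass the filter.

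ENSRNOG00000000463 (positions 3830164 to 3859018, plus strand, with 66 exon blocks and no overlapping feature) had 24.6, 31.4, 21.1 and 39.3 CPM in the 4 fentanyl females (L1, L2, L7 and L8) and 65.3, 51.3 and 50.9 CPM in the 3 saline females (SF1, SF2 and SF4). The groups did not overlap. The level fell by 0.73 ± 0.17 on the log2 scale (SE, edgeR adjusted p = 0.00719). In NAc males the fentanyl rats N1, N2, N3 and N7 had 28.6, 27.8, 44.1 and 30.9 CPM and the saline rats SM1, SM3 and SM4 had 45.7, 46.3 and 57.7 CPM. These groups did not overlap either. The male log2 fold change of -0.63 ± 0.17 had an edgeR unadjusted p of 0.00127 and did not pass after adjustment (adjusted p = 0.518).

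ENSRNOG00000000435 (positions 4381455 to 4401610, minus strand) had 12.4, 9.75, 14.3 and 13.7 CPM in the fentanyl females and 31.8, 26.0 and 24.3 CPM in the saline females. All fentanyl values lay under all saline values, and the level fell by 0.92 ± 0.20 on the log2 scale (SE, edgeR adjusted p = 0.00380). In males the ranges of 12.7 to 24 CPM (fentanyl) and 18.5 to 27.2 CPM (saline) overlapped, with a log2 fold change of -0.22 ± 0.20 (edgeR adjusted p = 0.902). This feature overlaps ENSRNOG00000000433 on the opposite strand, which had 148 ± 18.8 CPM in the NAc (SD, n = 14) and did not pass in females (log2 fold change -0.13 ± 0.12, edgeR adjusted p = 0.486).

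ENSRNOG00000000804 (positions 3344870 to 3350927, plus strand, with no overlapping feature) was the single member called higher. Fentanyl females had 30.8, 46.2, 39.6 and 41.7 CPM and saline females 31.4, 27.8 and 30.9 CPM, so L1 lay within the saline range and the other 3 above it. The log2 fold change was 0.61 ± 0.16 (SE, edgeR adjusted p = 0.0125). The other 4 lower calls, at positions 3422461, 4369178, 5139882 and 5432004, had log2 fold changes from -0.46 to -0.37.

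**Figure D3:**
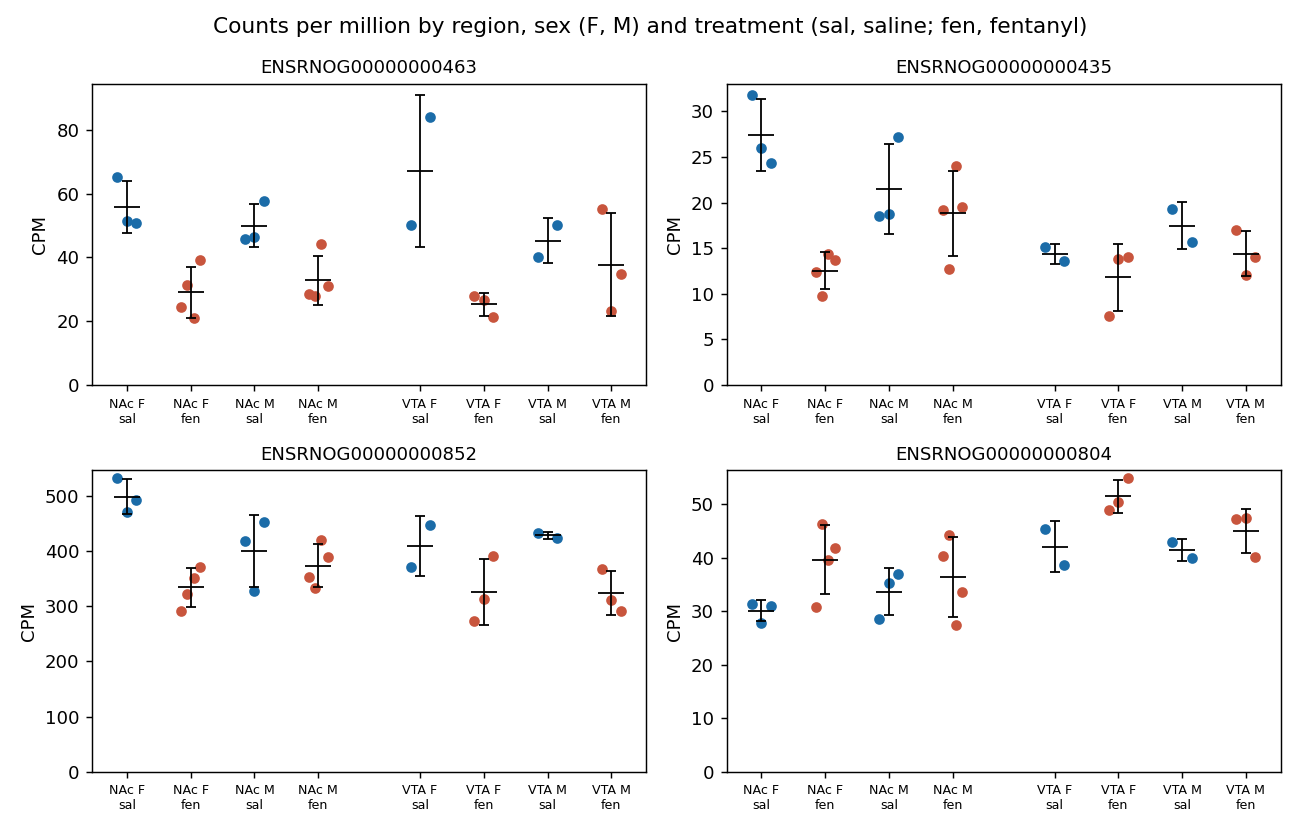
CPM of ENSRNOG00000000463, ENSRNOG00000000435, ENSRNOG00000000852 and ENSRNOG00000000804 in each library by region, sex (F, M) and treatment (saline blue, fentanyl red), with group mean and SD; each axis starts at 0. In NAc females the first 3 features lie lower with fentanyl in all 4 rats than in any of the 3 saline rats, and ENSRNOG00000000804 lies higher in 3 of 4.

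The number of female calls was 2 without SF1, 3 without SF2, 4 without SF4 and 12 with no low-count filter. The share of all features called in these fits is not given here, so the changes are not shown to be particular to the members. Of the named features, ENSRNOG00000000463 (edgeR adjusted p = 0.0522) and ENSRNOG00000000804 (0.0524) lost their calls without SF1, and ENSRNOG00000000804 (0.0553) also without SF2. Of the other 4 lower calls, each was lost without at least 1 of the 3 saline rats. The mitochondrial share moved with the groups, at 29.2 to 36.7% in fentanyl and 22.1 to 26.1% in saline NAc females. CPM values include these counts while the fold changes use TMM scaling. The fentanyl to saline ratios of CPM means of the 3 named features lie under their fitted ratios. How much of that gap comes from mitochondrial counts was not tested. With mitochondrial features left out, 7 members were called, again 1 higher and 6 lower. Summed over all 156 members, the level was 4039 to 4494 CPM in fentanyl and 4960 to 5352 CPM in saline NAc females. Without mitochondrial features it was 6135 to 6385 and 6715 to 6868 CPM, and the groups again did not overlap. In NAc males these sums overlapped, at 5890 to 6641 CPM (fentanyl) and 6286 to 7055 CPM (saline). They overlapped in VTA females (5629 to 6097 and 5993 to 6626 CPM) but not in VTA males (5942 to 6468 and 6517 to 6572 CPM). A few strong features dominate the sums, and no like sum was taken over other features.

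In NAc males, 0 of 100 members were called, with 6 under an unadjusted p of 0.05 and 0 called by DESeq2. Over all features edgeR called 0 of 13248, with 6.42% under an unadjusted p of 0.05, and DESeq2 called 6 (0.0453%). The members of smallest p that were higher had log2 fold changes of 0.45 ± 0.15 (ENSRNOG00000022730, edgeR adjusted p = 0.571) and 1.02 ± 0.46 (ENSRNOG00000000432, adjusted p = 0.756). The difference between the female and the male effect was tested itself and called 0 of 100 members by edgeR and by DESeq2, with 8 under an unadjusted p of 0.05. Over all features 0.770% were called by edgeR, 1.93% by DESeq2, and 14.1% had an unadjusted p under 0.05. The smallest adjusted p over the members was 0.134, for ENSRNOG00000052795 (log2 difference -1.13 ± 0.36). The fentanyl effects on ENSRNOG00000000435, ENSRNOG00000000463 and ENSRNOG00000000804 were therefore not shown to differ between the sexes. Their edgeR adjusted p for that difference was 0.237, 0.905 and 0.287.

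Averaged over both sexes, 3 of 100 members were called in the NAc, 0 higher and 3 lower, and all 3 were among the 7 female calls. Over all features 7.51% were called, 4.52% higher and 2.99% lower. ENSRNOG00000000463 fell by 0.68 ± 0.12 on the log2 scale (SE, edgeR adjusted p = 0.00319) and ENSRNOG00000000435 by 0.57 ± 0.14 (adjusted p = 0.0162). The third was ENSRNOG00000000852 (positions 5139882 to 5155293, minus strand), which fell by 0.24 ± 0.07 (adjusted p = 0.0382). Its 8 fentanyl libraries ranged from 291 to 421 CPM and its 6 saline libraries from 327 to 533 CPM, with an overlap in males. The count was 1 without SM4 or SF1, 5 without N3 or L1, 6 without L2 or L8, and 9 with no low-count filter. For these fits, too, the share of all features called is not given here. The call of ENSRNOG00000000435 was lost without SF1 (edgeR adjusted p = 0.0521) and without SM4 (0.0860). That of ENSRNOG00000000852 was lost without any one of SF1 (0.0915), SF2 (0.0681), SF4 (0.0786), N1 (0.0710), N2 (0.0879), SM1 (0.0717) or SM4 (0.142). ENSRNOG00000000463 was called in each of these fits.

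In the VTA no fentanyl comparison called a member. The test with edgeR called 0 of 129 members in females, in males and over both sexes, with 17, 6 and 18 under an unadjusted p of 0.05. Over all 14400 features it called 0% in each, with 7.62%, 4.50% and 8.83% under an unadjusted p of 0.05, while DESeq2 called 37, 7 and 39 features (0.257%, 0.0486% and 0.271%). DESeq2 called 1 member in females, 0 in males and 0 over both sexes.

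The member that DESeq2 called was ENSRNOG00000000463 (adjusted p = 0.0395 by DESeq2, 0.507 by edgeR). It had 28, 26.5 and 21.2 CPM in the fentanyl females L1, L2 and L7 and 50.1 and 84.0 CPM in the saline females SF1 and SF2. The edgeR log2 fold change was -1.29 ± 0.32. These groups did not overlap. In VTA males the fentanyl rats had 55.1, 23.3 and 34.7 CPM and the saline rats 40.3 and 50.3 CPM, with overlap and a log2 fold change of -0.18 ± 0.32.

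Over both sexes in the VTA, the smallest p belonged to ENSRNOG00000000842 (positions 5049496 to 5052585, plus strand). Its fentanyl libraries had 9.57, 11.5 and 11.5 CPM in females and 17.7, 14.3 and 15.4 CPM in males, against 17.8 and 22.6 CPM in saline females and 18.8 and 25.7 CPM in saline males. Within each sex the groups did not overlap. The log2 fold change was -0.59 ± 0.15 (edgeR unadjusted p = 0.00155, adjusted p = 0.364). Among members with a higher value, ENSRNOG00000000804 had a log2 fold change of 0.30 ± 0.10 (edgeR adjusted p = 0.455).

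A few members also differed between rats of the same sex and treatment. Some members were at or near 0 in certain rats, in both regions, and well above it in others. The test of rats within groups of sex and treatment was shared by both regions of 10 rats. It called 2 of 129 members (1.55%) by edgeR and 3 by DESeq2, where edgeR called 0.372% and DESeq2 0.912% of all features. Unadjusted p was under 0.05 for 11 members (8.53%), near the 8.01% of all features. The called members were ENSRNOG00000048232 (edgeR adjusted p = 0.0119) and ENSRNOG00000026051 (adjusted p = 0.0143).

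ENSRNOG00000026051 (positions 3135791 to 3140610, plus strand) had 0 counts in SM3, 1 in SF2, 5 in SM1 and 8 in N3, summed over both regions. The other 6 rats had 35 (L1), 38 (N1), 44 (N2), 63 (SF1), 75 (L2) and 95 (L7) counts. In the NAc the low rats had 0, 0, 0 and 0.261 CPM, and the 10 other NAc libraries 2.93 to 10.2 CPM. ENSRNOG00000060523 (positions 3134704 to 3135301, minus strand), the neighbouring feature, was at 0 counts in both regions of the same 4 rats and at 12 to 39 counts in the other 6. Each 0 allows up to 3 counts per library. The edgeR adjusted p of ENSRNOG00000060523 was 0.136, so it did not pass.

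ENSRNOG00000029386 (positions 3146856 to 3150852, plus strand) showed other rats at the floor. It had 0 counts in L2 and 10 in L7, of which 0 were in the NAc, and 55 to 182 counts in the other 8 rats. In the VTA the highest levels, 20.1, 17.3, 14.8 and 13.0 CPM, belonged to SM1, SM3, N3 and SF2, the rats in which ENSRNOG00000026051 was low. The NAc repeated this in part. There SM1, SF2 and N3 had 18.8, 9.86 and 9.66 CPM, with L1 close by at 9.61 CPM. SM3, at 5.89 CPM, lay under L1 and N2 (6.59 CPM). In the test of rats the edgeR adjusted p of ENSRNOG00000029386 was 0.142. ENSRNOG00000026051 and ENSRNOG00000029386 both overlap a further feature on the opposite strand.

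**Figure D4:**
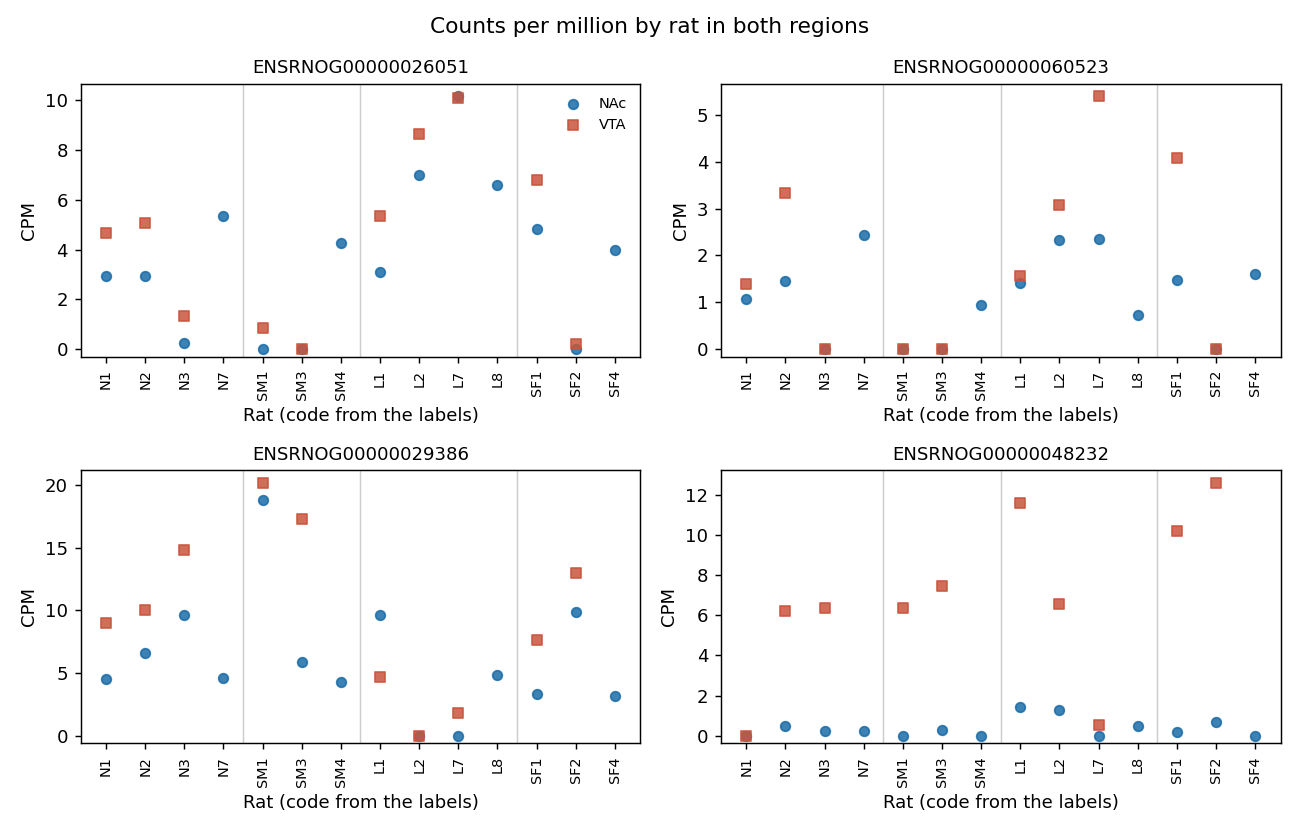
CPM of ENSRNOG00000026051, ENSRNOG00000060523, ENSRNOG00000029386 and ENSRNOG00000048232 in each of 14 rats, NAc as circles and VTA (10 rats) as squares; vertical lines part the groups N, SM, L and SF. N3, SM1, SM3 and SF2 lie at or near 0 in both regions for the first feature and at 0 for the second, L2 and L7 lie at or near 0 for the third, and N1 and L7 lie near 0 in the VTA for the fourth.

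ENSRNOG00000048232, the VTA feature described above, was called on its VTA libraries. Its NAc libraries held 0 to 6 counts each and do not separate the rats, with SM1, SM4 and SF4 at 0 beside N1 and L7. The VTA levels were 0 CPM in N1 and 0.540 CPM in L7, against 6.19 to 12.6 CPM elsewhere. Its call was lost without L7 (edgeR adjusted p = 0.110) and without N1 (0.0715). That of ENSRNOG00000026051 was lost without SF1 (0.229) and without SF2 (0.186).

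By a plain criterion, 10 of 156 members (6.41%) had at least 1 rat with at most 1 count and at least 1 rat with 20 or more, summed over both regions. Of 15102 features of the same minimum length and count outside the sex chromosomes and the mitochondrion, 1.05% met it. Those features were not matched to the members by level, on which the criterion depends. Several of the 10 members met it narrowly, with 20 or 21 counts in the highest rat. The criterion was set after such rats had been seen, and the share is given with no test. Of these 10 members, 5 lay among the 16 members between 3115840 and 3282523. Of those 16, 14 were tested and 7 had an unadjusted p under 0.05 in the test of rats, a description since the stretch was picked out by its values.

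The fentanyl and saline groups held such rats in unequal numbers. Of the NAc rats low in ENSRNOG00000026051, 3 were among the 6 saline and 1 among the 8 fentanyl rats. In VTA males its log2 fold change with fentanyl was 3.08 ± 1.33 (edgeR adjusted p = 0.956), where both saline rats, SM1 and SM3, were low. ENSRNOG00000029001 (positions 3155652 to 3157088, plus strand) had 0 counts in L2 and 2 in L7 over both regions, and its VTA log2 fold change over both sexes was -2.21 ± 0.57 (edgeR adjusted p = 0.364). How far the rats, rather than the treatment, set these values was not tested.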

How the data were processed

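Total RNA from NAc and VTA punches of rats was depleted of ribosomal RNA and sequenced as paired ends, per the labels' protocols. The authors deposited raw counts per feature, 1 table per library, with position and length. Per the submitters' processing notes, the tools were DESeq2, featureCounts (Subread 1.5.2), STAR 2.5.2b and Trimmomatic 0.36, listed with no role or order. The labels record no genome build, annotation release, strand setting or handling of multi-mapped reads.

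Groups (region, sex, treatment) came from the labels, and the animal code in the title marks separate rats and pairs regions of a rat. Residuals of the 2 libraries of a rat correlated at a mean of 0.0367 over 10 pairs, against -0.00405 over 90 pairs of different rats. Over the MHC-interval members alone the means were 0.231 and -0.0253, given as a description. Totals of 3.46 to 6.30 M counts limit precision for weak features, and floors cover counting error only.

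Counts were fitted with edgeR 4.0.16 in R 4.3.3 (TMM scaling, filterByExpr, robust quasi-likelihood fit, two-sided F test, Benjamini-Hochberg adjustment over all features tested, threshold 0.05). Each region was fitted with its 4 groups, and the regions within 10 rats with rat as a block. The test of rats took 6 rat coefficients together. Standard errors were derived from the F statistic. CPM is the count scaled to a library total of 1000000. Scripts were tested on simulated data. Alternatives were DESeq2 1.42.0, upper-quartile scaling, mitochondrial features left out, no low-count filter, the replicate number as a block, and each library or rat left out. Features were to be named as follows: at most 2 identifiers a direction in each comparison by size of change among those called with a mean of at least 1 CPM, or by smallest p where none was called, the strongest per kb, and those called in the test of rats. ENSRNOG00000000852, ENSRNOG00000060523, ENSRNOG00000029386 and the stretches were chosen after their values were seen. The members, lists and tests were chosen with earlier results of these data known. Lists by gene symbol, cell type markers and sequences were not used, since no identifier could be paired with a name.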

Additional observations from a re-analysis of the deposited data

Results flagged for a closer look

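In 68 groups of 4 libraries or more, over 34 members, 2 groups had a library far from the others (a gap above Dixon's critical ratio for 4 libraries); chance flags about 1 in 20 groups. For ENSRNOG00000000812 in NAc fentanyl males, N1 was lowest at 13.4 CPM, with the other 3 rats at 15.9 to 16.3 CPM. For ENSRNOG00000000841 in NAc fentanyl males, N3 was highest at 144 CPM, with the other 3 rats at 115 to 119 CPM.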

How the results depend on the processing

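With no low-count filter, edgeR called 12 members in NAc females, 1 in NAc males, 9 over both sexes and 1 for the difference between the sexes. It called 6 in VTA females, 3 in VTA males, 7 over both sexes of the VTA and 9 in the test of rats. The cause was not tested. Apart from DESeq2, the share of all features called under the alternatives is not given here. Their counts are therefore not a result about the members. DESeq2 called 1 member in VTA females. Leaving out 1 library or rat at a time gave 2 to 9 calls in NAc females, 1 to 6 over both sexes of the NAc, 1 to 2 in the test of rats (1 without N1, SF1 or SF2), and 31 to 39, 42 to 54 and 56 to 65 for the region difference in saline rats, fentanyl rats and their mean. Groups of 2 left with 1 library assume that it varies like the other groups. Summed levels without mitochondrial features were 6467 CPM in the NAc and 6152 CPM in the VTA. Of 48 results on single features, alternatives kept direction and side of the threshold 746 times, lost a call 35 times, gained one 8 times and never reversed a direction. The replicate number did not pair rats within a region: the mean residual correlation of same-numbered libraries was -0.0146 in the NAc (12 pairs) and 0.00144 in the VTA (10 pairs). With the replicate block, 7 members were called in NAc females and 1 over both sexes of the NAc, where ENSRNOG00000000435 (edgeR adjusted p = 0.117) and ENSRNOG00000000852 (0.228) were lost, and 0 in the other fentanyl comparisons; in NAc females it ended the calls of ENSRNOG00000000852 (0.0626) and of the feature at 3422461 (0.0910). With no replicate block of rats, the region difference called 37, 52, 60 and 0 members (saline, fentanyl, mean, difference). Depth limits the weak members: 56 did not pass the filter in the NAc and 27 in the VTA.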
